A study of Mus musculus with 12 samples.

Results

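The genes described here are 10 members of the mouse p200 family, which lie in a cluster on chromosome 1. They were chosen by symbol from the 32285 genes of the deposited count table: Aim2, Mndal, Ifi203, Ifi204, Ifi205, Ifi206, Ifi207, Ifi209, Ifi211 and Ifi213. All 10 passed the filter on low counts and were tested, among 14113 genes in all. Messenger RNA was sequenced from wild-type bone marrow-derived macrophages, that is, bone marrow cells differentiated into macrophages in a dish, with 3 biological replicates in each of 4 groups. The cells received itaconic acid (IA), methylsuccinic acid (MetSA) or malonic acid (MA) for 16 h, each at 5 mM from a 50 mM stock in RPMI medium, or medium alone (M). Activated macrophages make itaconic acid, a dicarboxylic acid, themselves. Methylsuccinic acid is its counterpart with the carbon-carbon double bond saturated, and malonic acid is a shorter dicarboxylic acid. The labels name no further stimulus, and they do not say whether the 3 replicates came from separate mice.

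Proteins of the p200 (PYHIN) family typically join a pyrin domain, which binds other pyrin domains, to 1 or more HIN domains, which bind DNA. AIM2, the best known of them, binds double-stranded DNA in the cytosol and recruits the adaptor ASC (gene Pycard), so that caspase-1 (Casp1) is activated, interleukin-1 beta and interleukin-18 mature, and gasdermin D (Gsdmd) opens pores in the membrane. Many family genes are induced by interferons in macrophages, through a complex that contains STAT2 and IRF9 and binds a motif called the interferon-stimulated response element (ISRE). The mouse family is larger than the human one, and its genes arose from each other by duplication.

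The cluster ran from base 173350879 to base 174031810 of chromosome 1 (mm10, 680932 bases from the start of Aim2 to the end of Ifi205). Aim2 (chr1:173350879-173466040) and Ifi209 (chr1:173630917-173647928) lie on the plus strand. The others lie on the minus strand in the order Ifi206 (chr1:173468485-173491041), Ifi213 (chr1:173566283-173599274), Ifi207 (chr1:173723427-173741747), Ifi204 (chr1:173747293-173766943), Mndal (chr1:173849126-173942491), Ifi211 (chr1:173896345-173913046), Ifi203 (chr1:173920407-173942672) and Ifi205 (chr1:174011998-174031810). All 10 are annotated as protein-coding, with 6 (Ifi205) to 15 (Mndal) merged exons.

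Because the members are paralogs, reads can be split or lost between them. Of the 100-base stretches of each gene's annotated transcripts, the share that also occurs in another gene was 0% for Aim2, 0.790% for Ifi207, 2.84% for Ifi203, 3.30% for Ifi213 and 6.38% for Mndal. It was 10.7% for Ifi204, 13.1% for Ifi206, 15% for Ifi205, 16.9% for Ifi209 and 56.9% for Ifi211, so the values of these 5 genes are uncertain as single genes. Ifi211 shared 37.2% of its stretches with Ifi205 and 19.6% with Ifi204, and Ifi209 shared its 16.9% with Ifi214, another gene of the cluster. The exons of Mndal and Ifi203 overlap by 37 bases on the same strand, and the span of Mndal contains Ifi211. The sum of the 10 members, which a read moved among them leaves as it is, was therefore tested beside the single genes. It does not cover sequence shared with genes outside the 10, such as that of Ifi209 with Ifi214. Of the stretches of Ifi206, 2.94% occur in another member, against 13.1% in any other gene.

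The start regions of the members resemble each other around a short motif, and these stretches are shown because most members in the promoter table share it. RefSeq promoter windows on GRCm38.p6 (mm10), 250 bases before to 50 bases after each annotated start, were found for 9 of the 10 members, in 11 windows; Ifi204 was not matched. The ISRE core was searched as GAAANNGAAA on both strands. It stood in 8 of the 11 windows and in 7 of the 9 genes, against 3.44% of all 32851 windows (1131 windows). In 5 members, Ifi206, Ifi213, Ifi207, Mndal and Ifi203, the match read GAAATCGAAA, a form found in 16 windows of the whole table (0.0487%), and 2 more of those 16 belong to Ifi214 and Ifi208 of the same cluster. This form is 1 of the forms that GAAANNGAAA allows, so the counts overlap. It was picked as the most frequent match in the members' own windows. Its share among them is therefore a description and no test of enrichment. In Ifi211 and Ifi205 the match read GAAATTGAAA, Ifi205 held a second match, and a second start of Mndal held a match on the other strand only. Capitals below mark the match, with 25 bases on each side, read 5′ to 3′ on the strand of the gene.
Ifi206: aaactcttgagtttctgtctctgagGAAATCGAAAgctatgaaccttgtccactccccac
Ifi213: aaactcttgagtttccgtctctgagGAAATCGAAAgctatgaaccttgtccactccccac
Mndal: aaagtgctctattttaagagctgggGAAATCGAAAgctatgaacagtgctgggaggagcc
Ifi203: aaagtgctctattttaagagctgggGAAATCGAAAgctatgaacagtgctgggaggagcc
Ifi207: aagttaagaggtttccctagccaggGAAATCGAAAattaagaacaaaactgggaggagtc
Ifi211: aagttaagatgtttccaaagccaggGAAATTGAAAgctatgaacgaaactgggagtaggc
Ifi205: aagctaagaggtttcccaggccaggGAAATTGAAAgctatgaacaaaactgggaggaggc
Ifi209: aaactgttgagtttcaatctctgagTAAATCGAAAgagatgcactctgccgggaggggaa

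The stretches are chr1:173491324-173491383 for Ifi206, chr1:173599311-173599370 for Ifi213, chr1:173880189-173880248 for Mndal, chr1:173942493-173942552 for Ifi203, chr1:173741816-173741875 for Ifi207, chr1:173913049-173913108 for Ifi211 and chr1:174031855-174031914 for Ifi205, all on the minus strand. That of Ifi209 is chr1:173630755-173630814 on the plus strand. The stretch of Mndal lies well inside the annotated span of that gene (chr1:173849126-173942491). On the minus strand this span starts at base 173942491, beside the stretch of Ifi203. That stretch lies inside the annotated span of Ifi203 (chr1:173920407-173942672). A further window of Ifi203 (chr1:173942623-173942922), around the start of that span, held no ISRE core. Counted from the RefSeq start of the window that holds it, the match began at base -40 in Ifi206, -73 in Ifi213, -36 in Mndal, -35 in Ifi203, -41 in Ifi207, -37 in Ifi211 and -134 in Ifi205. The stretch of Ifi209 has no full match. Its nearest form, at base -79, differs from GAAATCGAAA by G1T, counted from 1 at the 5′ end of the motif with the motif's base given before the position. The stretches fell into groups: Mndal and Ifi203 were identical at 60 of 60 bases, Ifi206 and Ifi213 at 59, Ifi211 and Ifi205 at 54, and Ifi207 and Ifi205 at 52, against 28 for Ifi206 and Ifi207. A second interferon motif, GAS (TTCNNNGAA on both strands), stood in 0 of the 11 windows of members and in 8.30% of all windows. A match is a description of these letters and shows no binding.

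The 300-base window of Aim2 held no ISRE core and no GAS match. The RefSeq start that it surrounds lies inside the annotated span of the gene. The 250 bases before that start (chr1:173420354-173420603, plus strand) are shown for contrast, with no capitals because neither motif was found. A nearest form was sought for Ifi209 only, so Aim2 was not searched for near matches.
Aim2: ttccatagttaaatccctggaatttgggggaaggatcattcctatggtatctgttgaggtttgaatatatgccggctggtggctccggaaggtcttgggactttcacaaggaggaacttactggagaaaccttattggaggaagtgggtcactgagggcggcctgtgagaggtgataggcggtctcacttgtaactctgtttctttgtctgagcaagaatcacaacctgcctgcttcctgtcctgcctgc

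Library totals ran from 46892488 to 54252486 counts, and the members took 0.463 ± 0.019% of all counts in IA, 0.325 ± 0.035% in MetSA, 0.0823 ± 0.0065% in MA and 0.109 ± 0.015% in M (SD, n = 3 each). Macrophage markers (10 genes) were abundant in every library, with a summed level of 29330 to 31870 CPM (counts scaled to a common library size) in IA, 30700 to 37390 in MetSA, 31030 to 33190 in MA and 29230 to 31130 in M. Lymphocyte markers summed to at most 1.02 CPM in any library, with Ncr1 at 0 in all 12. Summed neutrophil markers (9 genes, none at 0 throughout a group) reached 208 to 244.5 CPM in IA, 222 to 232 in MetSA and 224 to 237 in MA, against 139 to 186 in M. Summed dendritic cell markers (8 genes, none at 0 throughout a group) reached 8.56 to 10.6 CPM in IA, 5.46 to 7.30 in MetSA and 4.02 to 4.39 in MA, against 3.15 to 5.10 in M. Since these marker levels move with the groups, they stand beside the results below, and their part in them was not tested. The mitochondrial share of counts was 0.673% to 0.811% in IA, 0.759% to 1.28% in MetSA, 1.05% to 1.13% in MA and 1.15% to 1.36% in M, and its part was likewise not tested. In such bulk samples, more RNA per cell and more cells that express a gene cannot be told apart.

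MetSA replicate 3 stood apart from the other 2 MetSA libraries and holds the highest mitochondrial share of that group, 1.28%. It was the lowest MetSA library for all 10 members, at 53.3% of the mean of the other 2 for Ifi205, 59.7% for Ifi206, 60.6% for Ifi213, 70.3% for Ifi209 and 93.8% for Aim2. The 4 members with the highest fold changes of IA over M stood furthest below the other libraries here. M replicate 1 was the lowest M library for all 10 members, at 65.4% (Ifi213) to 91.3% (Aim2) of the mean of the other 2. Results that rest on MetSA are given below with and without MetSA replicate 3.

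**Figure D1:**
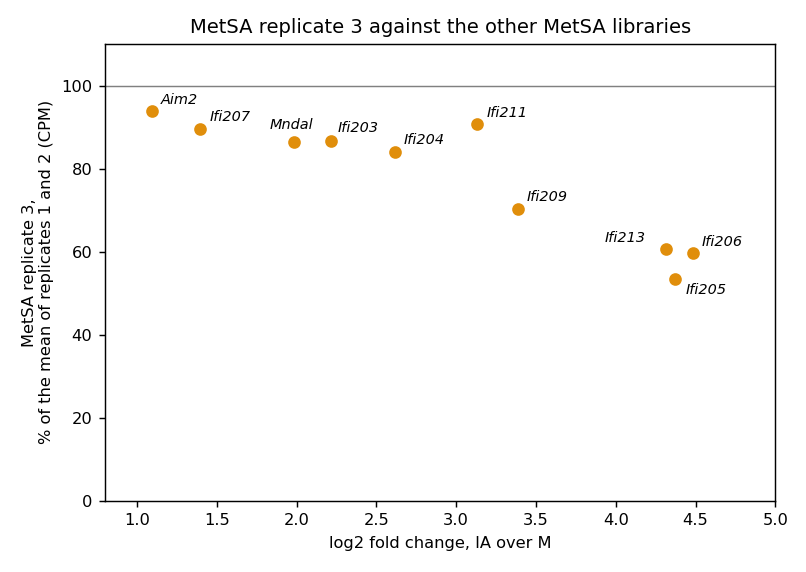
Level of each member in MetSA replicate 3 as a percentage of the mean of MetSA replicates 1 and 2 (y axis, CPM), against the log2 fold change of IA over M (x axis); each point is 1 gene. All 10 points lie below 100%, from 93.8% for Aim2 to 53.3% for Ifi205.

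The p200 genes were high in macrophages given itaconic acid or methylsuccinic acid and low in malonic acid and in medium. Their summed level was 4720, 5059 and 5160 CPM in IA, 3631, 3424 and 2904 CPM in MetSA, 729.7, 824 and 830 CPM in MA, and 880, 1053 and 1139 CPM in M. The 4 groups did not overlap, in the order IA, MetSA, M, MA. The sum was 4.86-fold higher in IA than in M (log2 2.28, 95% interval 2.07 to 2.49, edgeR adjusted p = 3.11e-11) and 3.24-fold higher in MetSA than in M (log2 1.70, 1.49 to 1.90, edgeR adjusted p = 2.54e-09). In MA it was lower than in M by a small amount (log2 -0.37, -0.56 to -0.17, edgeR adjusted p = 0.0101). That last call was lost without MA replicate 1 (-0.31, edgeR adjusted p = 0.0564) and without M replicate 3 (-0.28, edgeR adjusted p = 0.0515).

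**Figure D2:**
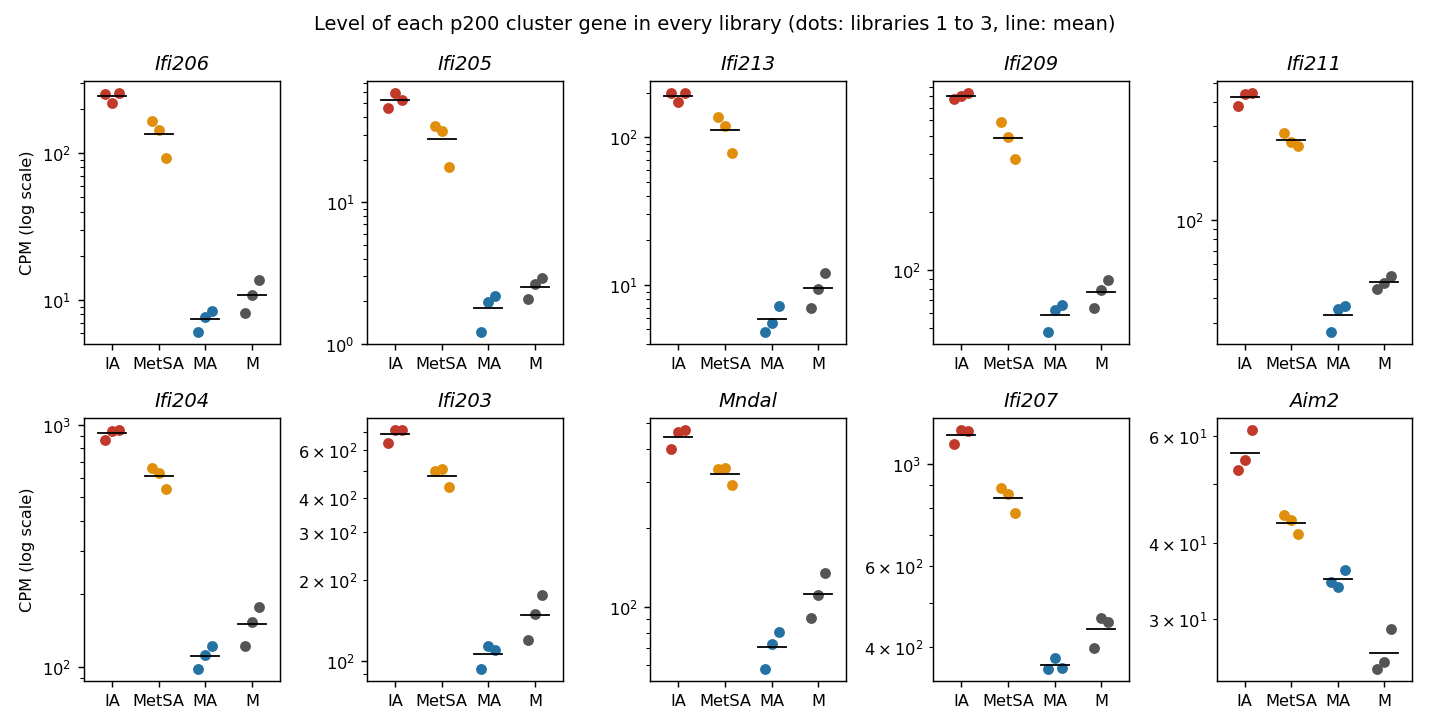
Level of each p200 gene (y axis, CPM on a log scale) in each of the 12 libraries, by group in the order IA, MetSA, MA, M; each point is 1 library. Aim2 keeps MA above M, whereas the other members have their lowest values in MA.

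Against medium alone, all 10 members rose in IA, where 17.9% of all genes tested were called higher at an adjusted p under 0.05. Their log2 fold changes ran from 1.09 to 4.48 with a median of 2.87, beside a median of -0.03 over all genes tested, and for every member the 3 IA values lay above the 3 M values (23.5% of all genes). In MetSA all 10 rose as well (background 12.6%), with a median of 2.22 beside -0.01 over all genes, all 10 had no overlap with M (18.1% of all genes), and all 10 were still called without MetSA replicate 3. In MA 1 member rose, Aim2 (background 10.1%), and 5 fell, Mndal, Ifi203, Ifi204, Ifi207 and Ifi211 (background 10.1%). The 3 MA values of Aim2 lay above its 3 M values (17.1% of all genes), and those of the 5 that fell lay below (18.6%). The median in MA was -0.49 beside -0.02 over all genes. Since the 3 comparisons share the M libraries, their values are set side by side and not correlated.

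**Figure D3:**
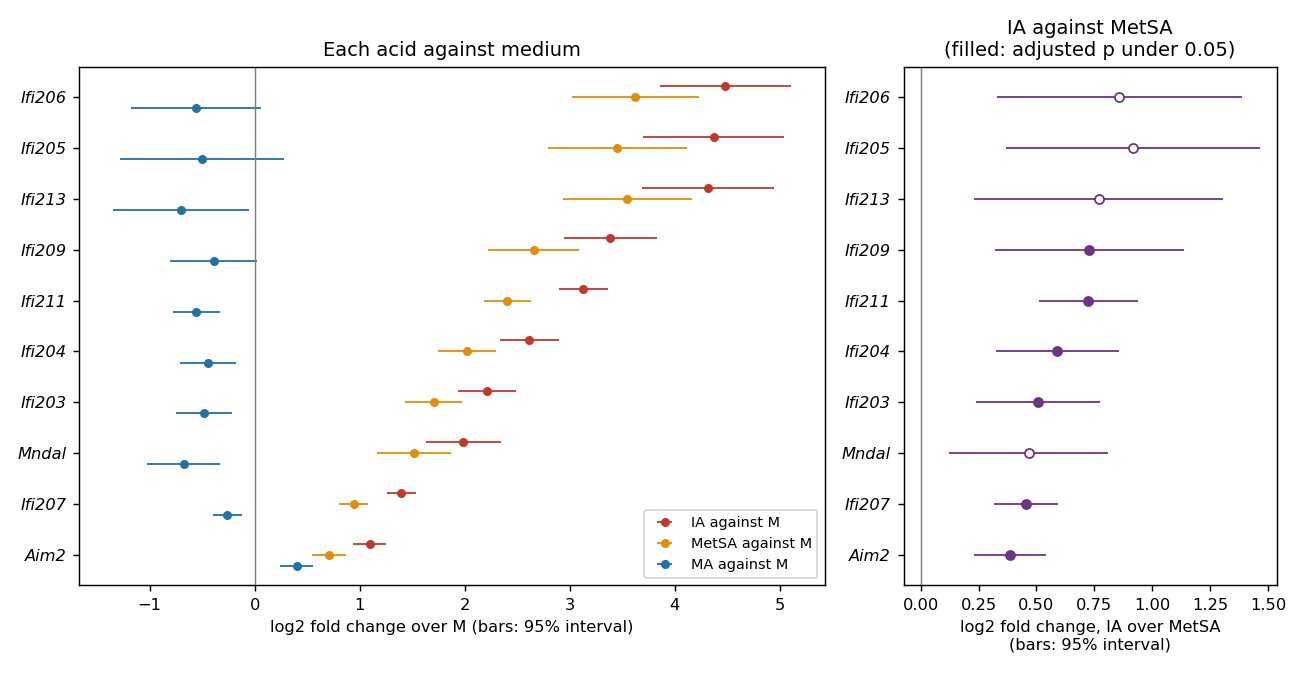
Log2 fold change of each p200 gene against M (x axis) in IA, MetSA and MA, with 95% intervals from the edgeR fit as bars. The IA and MetSA points of all 10 genes lie above 0, from 0.71 (Aim2 in MetSA) to 4.48 (Ifi206 in IA), and Aim2 is the 1 gene whose MA point does.

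Aim2, the inflammasome sensor, was a low-level member with a graded response. Its level was 52.8, 54.8 and 61.5 CPM in IA, 44.5, 43.7 and 41.3 CPM in MetSA, 34.5, 33.9 and 36.1 CPM in MA, and 24.8, 25.5 and 28.9 CPM in M. No 2 groups overlapped. Each step of this order passed the test: IA over MetSA (log2 0.38, SE 0.07, edgeR adjusted p = 0.00432), MetSA over MA (0.31, SE 0.07, edgeR adjusted p = 0.00378) and MA over M (0.40, SE 0.08, edgeR adjusted p = 0.000649). Against M it rose 2.13-fold in IA (log2 1.09, 0.94 to 1.25, edgeR adjusted p = 1.15e-09) and 1.64-fold in MetSA (log2 0.71, 0.55 to 0.87, edgeR adjusted p = 9.55e-07). Its calls held under every alternative run, MetSA replicate 3 left out included. Aim2 shares no 100-base stretch with another gene, although shorter or mismatched reads could still be shared.

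Aim2 moved less than the other members in IA and MetSA, and the other way in MA. Of all counts in the 10 members it took 1.13 ± 0.05% in IA, 1.31 ± 0.10% in MetSA and 4.39 ± 0.31% in MA, against 2.59 ± 0.20% in M (SD, n = 3 each). The log2 ratio of Aim2 to the sum of the other 9 was -6.45 in IA, -6.24 in MetSA and -4.45 in MA, against -5.23 in M. It differed among the 4 groups by an exact permutation test (p = 6.49e-05), the smallest value that the 15400 ways to divide the 12 libraries can give. The difference of IA minus M was -1.22, and it was -1.25 with counts per kb of exon and -1.67 with Ifi207, the member with the most counts, left out of the sum. With each library left out in turn the difference stayed between -1.26 and -1.15, and the exact permutation p between 6.49e-05 and 0.00013.

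Ifi206 and Ifi213, whose printed promoter stretches differ at 1 base, had, with Ifi205, the highest fold changes of the 10 members. Ifi206 had 253, 219.8 and 257 CPM in IA, 166, 144 and 92.5 CPM in MetSA, 6.04, 7.71 and 8.41 CPM in MA, and 8.12, 10.9 and 13.6 CPM in M. IA and MetSA were far above the other groups, while MA and M overlapped. It rose 22.3-fold in IA (log2 4.48, 3.86 to 5.10, edgeR adjusted p = 1.78e-06) and 12.3-fold in MetSA (log2 3.62, 3.02 to 4.23, edgeR adjusted p = 1.25e-05, or 3.83 without replicate 3).

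Ifi213 had 199, 172 and 199 CPM in IA, 137, 119 and 77.7 CPM in MetSA, 4.79, 5.55 and 7.22 CPM in MA, and 7.03, 9.45 and 12.0 CPM in M. Its groups stood as those of Ifi206 did, with MA and M overlapping. It rose 19.9-fold in IA (log2 4.32, edgeR adjusted p = 2.52e-06) and 11.7-fold in MetSA (log2 3.55, edgeR adjusted p = 1.66e-05).

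Ifi205, whose protein has been described in mouse macrophages as a regulator of the ASC adaptor, was the lowest member per kb of exon. It had 46.2, 59.1 and 52.8 CPM in IA, 34.6, 31.6 and 17.6 CPM in MetSA, 1.21, 2.00 and 2.19 CPM in MA, and 2.07, 2.65 and 2.90 CPM in M. MetSA replicate 3 lay well below the other MetSA libraries, and MA and M overlapped. It rose 20.7-fold in IA (log2 4.37, 3.70 to 5.04, edgeR adjusted p = 2.11e-06) and 11-fold in MetSA (log2 3.45, edgeR adjusted p = 2.14e-05). Counts in M were 103 to 152 per library, so the fold rests on a low baseline.

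For Ifi205, Ifi206, Ifi213 and Ifi209 the MA values did not pass the test against M. The log2 differences were -0.50 (95% interval -1.29 to 0.28, edgeR adjusted p = 0.386) for Ifi205, -0.56 (-1.18 to 0.06, edgeR adjusted p = 0.206) for Ifi206, -0.70 (-1.35 to -0.06, edgeR adjusted p = 0.128) for Ifi213 and -0.39 (-0.81 to 0.02, edgeR adjusted p = 0.189) for Ifi209. Ifi213 passed with DESeq2 (-0.70, adjusted p = 0.0386) and with only the MA and M libraries in the fit (-0.69, edgeR adjusted p = 0.0311). All 4 passed without a filter on low counts, where the SEs were smaller (for Ifi206, 0.09 instead of 0.27). All 4 estimates lie below 0, and the intervals do not exclude falls as large as those of the members that were called.

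Ifi204, the mouse protein most often compared with human IFI16, and Ifi209 were among the most abundant members in IA. Ifi204 had 868, 943 and 953 CPM in IA, 659, 633 and 543 CPM in MetSA, 97.8, 112 and 122 CPM in MA, and 122, 153 and 176 CPM in M. No 2 of its groups overlapped, although MA replicate 3 (121.5 CPM) and M replicate 1 (122.0 CPM) all but met. It rose 6.13-fold in IA (log2 2.62, edgeR adjusted p = 8.26e-09) and 4.07-fold in MetSA (log2 2.03, edgeR adjusted p = 1.77e-07). In MA it fell (log2 -0.45, -0.71 to -0.18, edgeR adjusted p = 0.0215). This call was lost without MA replicate 1 (-0.37), MA replicate 2 (-0.45), M replicate 2 (-0.43) or M replicate 3 (-0.32), at edgeR adjusted p from 0.0603 to 0.0823, and with only the MA and M libraries in the fit (-0.44, edgeR adjusted p = 0.0544).

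Ifi209 had 779, 808 and 834 CPM in IA, 587, 493 and 380.1 CPM in MetSA, 47.6, 62.5 and 66.3 CPM in MA, and 63.5, 78.9 and 88.9 CPM in M. The 3 MetSA libraries were spread more widely than the 3 of IA, and MA overlapped with M. It rose 10.5-fold in IA (log2 3.39, 2.94 to 3.83, edgeR adjusted p = 7.25e-07) and 6.31-fold in MetSA (log2 2.66, edgeR adjusted p = 7.19e-06).

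Ifi207 had the highest level of the members in every group. It had 1106, 1185 and 1175 CPM in IA, 887, 860.4 and 783 CPM in MetSA, 359, 379.6 and 361.5 CPM in MA, and 398, 464 and 454 CPM in M. The 4 groups did not overlap. It rose 2.63-fold in IA (log2 1.40, 1.26 to 1.54, edgeR adjusted p = 9.33e-12) and 1.92-fold in MetSA (log2 0.94, 0.80 to 1.08, edgeR adjusted p = 5.38e-09). In MA it fell by 0.26 on the log2 scale (edgeR adjusted p = 0.00818), a call lost without M replicate 2 (-0.22, edgeR adjusted p = 0.0517).

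Mndal and Ifi203, whose printed promoter stretches are identical and whose exons overlap, moved alike. The printed stretch of Mndal lies well inside the annotated span of that gene and not at its start. That of Ifi203 lies inside the span of Ifi203 as well, near its start. Mndal had 398, 464 and 473 CPM in IA, 335.5, 339 and 291.5 CPM in MetSA, 58.2, 72.3 and 80.4 CPM in MA, and 90.5, 111 and 135 CPM in M. Ifi203 had 636.5, 712 and 711 CPM in IA, 501, 510.3 and 438 CPM in MetSA, 93.8, 114 and 110.4 CPM in MA, and 119.5, 149 and 176 CPM in M. For both genes no 2 groups overlapped. Mndal rose by 1.99 in IA (log2, edgeR adjusted p = 4.27e-06) and 1.52 in MetSA (edgeR adjusted p = 5.7e-05), and Ifi203 by 2.21 (edgeR adjusted p = 3.95e-08) and 1.71 (edgeR adjusted p = 8.62e-07). In MA Mndal fell by 0.68 on the log2 scale (edgeR adjusted p = 0.012) and Ifi203 by 0.48 (edgeR adjusted p = 0.0149). The call of Ifi203 was lost without MA replicate 1 (-0.40, edgeR adjusted p = 0.0585).

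Ifi211, most of whose sequence is shared with other members, had 382, 441 and 444 CPM in IA, 277, 250.3 and 239 CPM in MetSA, 26.9, 35.2 and 36.4 CPM in MA, and 44.7, 47.8 and 52.1 CPM in M. Its 4 groups did not overlap. It rose 8.76-fold in IA (log2 3.13, 2.90 to 3.36, edgeR adjusted p = 8.68e-12) and 5.30-fold in MetSA (log2 2.41, edgeR adjusted p = 5.09e-10), and fell by 0.55 on the log2 scale in MA (edgeR adjusted p = 0.00109). In MA the falls of Mndal and Ifi211 and the rise of Aim2 held under every alternative run.

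The 3 members with the highest fold changes in IA had the lowest levels in medium. The level in M is the denominator of these fold changes, so this link is partly built in. On the scale of mean CPM per kb of exon, the order in IA was Ifi207 (338), Ifi204 (259), Ifi211 (236.5), Ifi209 (227.5), Mndal (123), Ifi203 (102), Ifi206 (79.7), Ifi213 (27.7), Aim2 (16.1) and Ifi205 (12.6). On the same scale the order in M was Ifi207 (128), Ifi204 (42.2), Mndal (30.9), Ifi211 (27.0), Ifi203 (22.1), Ifi209 (21.7), Aim2 (7.54), Ifi206 (3.56), Ifi213 (1.39) and Ifi205 (0.609). Some neighbours in these orders are not clearly apart. Ifi211 and Ifi209 in IA differ by less than the SD of Ifi211 (19.4), but by more than that of Ifi209 (7.67). Ifi203 and Ifi209 in M differ by less than the SD of either gene (4.18 and 3.61). Of the counts in the 10 members, Ifi207 took 23.2 ± 0.4% in IA, 25.5 ± 1.3% in MetSA and 46.3 ± 2.8% in MA, against 43.0 ± 2.8% in M (SD, n = 3 each). Ifi209 took 16.2 ± 0.3% in IA, 14.6 ± 1.6% in MetSA and 7.37 ± 0.75% in MA, against 7.50 ± 0.30% in M. Ifi206 took 4.89 ± 0.51% in IA, 3.99 ± 0.72% in MetSA and 0.925 ± 0.093% in MA, against 1.05 ± 0.14% in M.

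**Figure D4:**
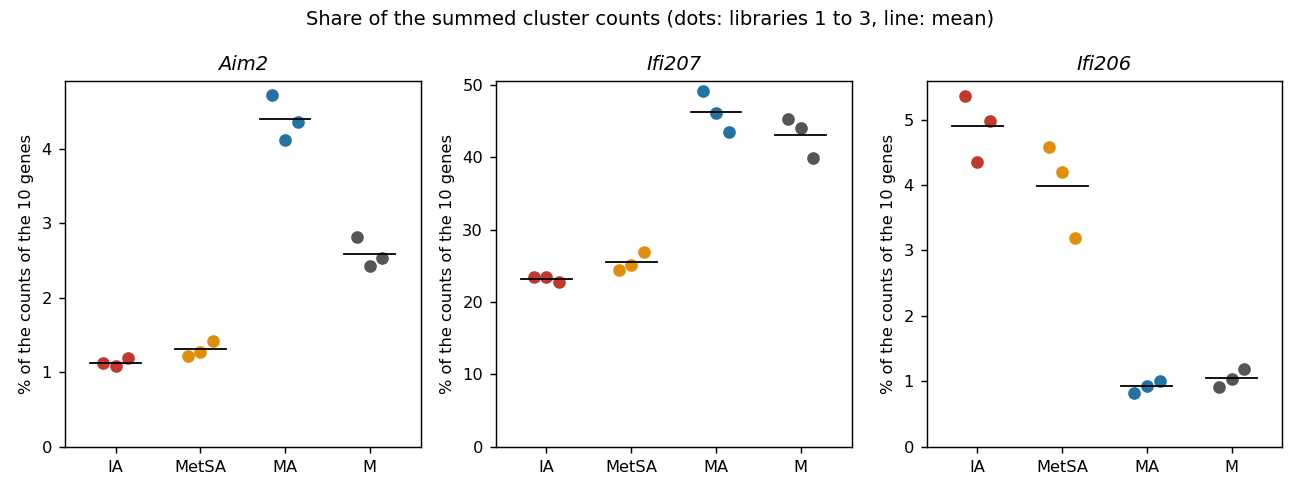
Share of the counts of the 10 p200 genes that Aim2, Ifi207 and Ifi206 took (y axis, percent), by group in the order IA, MetSA, MA, M. Each point is 1 library, and the line is the mean of 3 libraries. Ifi207 takes 23.2% in IA and 43.0% in M, and Aim2 1.13% in IA and 2.59% in M.

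Itaconic and methylsuccinic acid, at the same dose and time, both raised all 10 members over M, and the IA means were the higher ones. The MetSA mean was 53.0% (Ifi205), 55.2% (Ifi206), 58.7% (Ifi213), 60.3% (Ifi209), 60.5% (Ifi211), 66.4% (Ifi204), 70.3% (Ifi203), 72.3% (Mndal), 73.0% (Ifi207) and 76.6% (Aim2) of the IA mean. For all 10 members each IA value lay above each MetSA value (13.9% of all genes). The test called 6 of them higher in IA (background 3.97%): Aim2, Ifi203, Ifi204, Ifi207, Ifi209 and Ifi211. Their median log2 difference over all 10 was 0.66, beside -0.02 over all genes. The summed members were 1.5-fold higher in IA than in MetSA (log2 0.59, 0.39 to 0.78, edgeR adjusted p = 0.00179), and without MetSA replicate 3 the difference was 0.50 (edgeR adjusted p = 0.00381).

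The single calls between IA and MetSA were not all firm. Those of Aim2, Ifi207 (log2 0.45, SE 0.07, edgeR adjusted p = 0.000564) and Ifi211 (log2 0.72, SE 0.10, edgeR adjusted p = 0.000755) held under every alternative run. That of Ifi203 (log2 0.51, edgeR adjusted p = 0.0308) was lost when any 1 of the 6 IA and MetSA libraries was left out (0.44 to 0.56, edgeR adjusted p from 0.0543 to 0.14). That of Ifi204 (log2 0.59, edgeR adjusted p = 0.0148) was lost without IA replicate 3 (0.58, edgeR adjusted p = 0.0542) and without MetSA replicate 3 (0.51, edgeR adjusted p = 0.0701). That of Ifi209 (log2 0.73, edgeR adjusted p = 0.0477) was lost with upper-quartile scaling (0.70, edgeR adjusted p = 0.0551) and when any 1 of 8 libraries was left out, namely IA replicates 1, 2 and 3, MetSA replicates 2 and 3, MA replicates 2 and 3 and M replicate 2 (0.58 to 0.75, edgeR adjusted p from 0.0578 to 0.127). Without MetSA replicate 3, 4 members were called, and without IA replicate 3, 3 members.

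For the other 4 members the difference between IA and MetSA did not pass the test, with log2 values and 95% intervals of 0.47 (0.12 to 0.81, edgeR adjusted p = 0.112) for Mndal, 0.92 (0.37 to 1.46, edgeR adjusted p = 0.0608) for Ifi205, 0.86 (0.33 to 1.39, edgeR adjusted p = 0.0687) for Ifi206 and 0.77 (0.23 to 1.30, edgeR adjusted p = 0.0994) for Ifi213. These intervals, unadjusted for the number of genes, lie above 0, so the data do not show that the compounds act alike on these genes. Ifi205 passed without MetSA replicate 1 (1.10, edgeR adjusted p = 0.0416) and without MetSA replicate 3 (0.67, edgeR adjusted p = 0.0227). Ifi206 passed without MetSA replicate 1 (1.04, edgeR adjusted p = 0.0466), and Mndal without M replicate 1 (0.47, edgeR adjusted p = 0.0418). Mndal also passed with only the IA and MetSA libraries in the fit (0.47, edgeR adjusted p = 0.0103), and Ifi205 with halved counts (0.92, edgeR adjusted p = 0.0418). All 4 passed with DESeq2 (adjusted p from 0.00482 to 0.0296) and without a filter on low counts. Without the filter the log2 values stayed nearly the same, but the SEs were smaller (for Ifi206, 0.08 instead of 0.23).

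Against malonic acid all 10 members were higher in IA (background 17.8%) and in MetSA (background 14.7%). The log2 differences of IA over MA ran from 0.69 for Aim2 (edgeR adjusted p = 3.83e-07) to 5.04 for Ifi206 (edgeR adjusted p = 7.81e-07), and those of MetSA over MA from 0.31 for Aim2 to 4.25 for Ifi213 (edgeR adjusted p = 3.48e-06). Ifi207 stood next to Aim2 at the low end, with 1.66 for IA over MA (edgeR adjusted p = 7.5e-13) and 1.20 for MetSA over MA (edgeR adjusted p = 6.61e-11). The summed members were 6.27-fold higher in IA than in MA (edgeR adjusted p = 4.23e-12) and 4.18-fold higher in MetSA than in MA (edgeR adjusted p = 9.1e-11). All 10 calls of each comparison were made again without MetSA replicate 3.

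**Figure D5:**
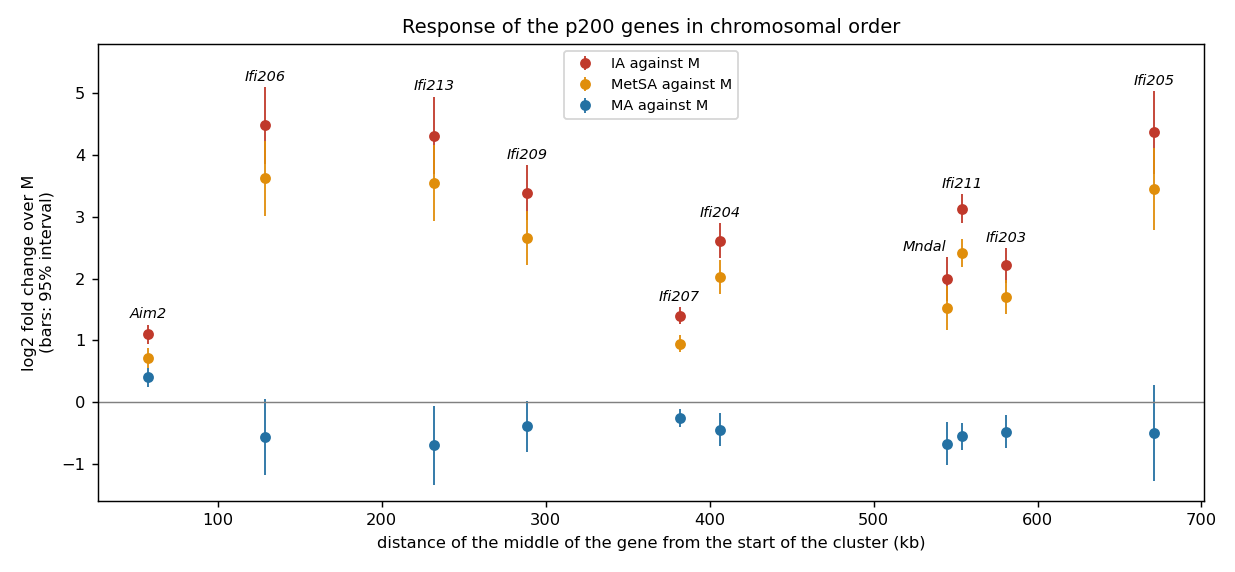
Log2 fold change over M with 95% intervals (y axis) of the p200 genes in IA, MetSA and MA, placed by the distance of the middle of each gene from the start of the cluster (x axis, kb). Fold changes do not follow the order of the genes, with Ifi206 (4.48 in IA) next to Aim2 (1.09) and Ifi205 (4.37) at the far end.

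Over the 12 libraries, the likeness of 2 members was measured as the root mean square distance of their log2 CPM values, each taken as a deviation from its M mean. The closest pair was Ifi206 and Ifi213 (0.12), then Mndal and Ifi203 (0.18) and Ifi209 and Ifi211 (0.23), and the farthest was Aim2 and Ifi206 (2.26). The closest pairs included the 2 pairs with the most alike promoter stretches, whereas Ifi211 and Ifi205, alike at 54 of 60 bases, stood 0.67 apart. The member nearest to Aim2 was Ifi207 (0.39). By the same measure, among 8423 genes outside the cluster with at least 10 CPM in their highest group, the genes nearest to Aim2 were Hmgcs1 (0.07), Slc15a3 (0.08), Tmem221 (0.09), Cybb (0.09) and Fdft1 (0.11). Hmgcs1 and Fdft1 encode enzymes of cholesterol synthesis, Slc15a3 a lysosomal peptide transporter and Cybb the catalytic subunit of the phagocyte NADPH oxidase. Those nearest to the mean of the members were Oas3 (0.09), an oligoadenylate synthetase, Usp18 (0.11), which removes ISG15 from proteins, H2-T24 (0.14), an MHC class I gene, Ifi47 (0.16), an immunity-related GTPase, and Ddx60 (0.17), a helicase. The points share libraries, and these distances describe the profiles without a test.

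3 further genes of the cluster were found by symbol. Ifi214, which shares sequence with Ifi209, had 8.86 ± 0.14 CPM in IA, 4.54 ± 2.04 in MetSA and 0.272 ± 0.094 in MA, against 0.265 ± 0.167 in M (SD, n = 3 each). It rose by 5.03 in IA (log2, SE 0.41, edgeR adjusted p = 2.92e-07) and by 4.07 in MetSA (SE 0.41, edgeR adjusted p = 5.95e-06), on 4 to 22 counts per library in M. Ifi208 had 8 to 27 counts in IA, 3 to 17 in MetSA and 0 in MA, against 0 to 4 in M, and was not tested. Ifi202b, whose protein p202 lacks a pyrin domain and is known to inhibit AIM2, had 0 to 9 counts in any library and was not tested. Cadm3, which overlaps the start of the annotated span of Aim2 on the other strand, had 0 to 8 counts and was not tested. Dusp23, the nearest gene before the cluster with at least 10 counts, averaged 3.97 CPM in IA, 5.96 in MetSA and 3.59 in MA, against 5.26 in M, with a log2 value of -0.41 in IA (edgeR adjusted p = 0.0612) and a fall of -0.55 in MA (edgeR adjusted p = 0.0211). After the cluster, the olfactory receptor gene Olfr433 had 0 to 24 counts per library and rose in IA (log2 3.24, SE 0.87, edgeR adjusted p = 0.00645).

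Of the genes on a general inflammasome list, which holds other sensors and regulators besides the partners of AIM2, 15 of 19 tested rose in IA and 0 fell, 13 rose and 1 fell in MetSA, and 4 rose and 5 fell in MA. Over all genes tested, the share called higher was 17.9% in IA, 12.6% in MetSA and 10.1% in MA. The share called lower was 17.3% in IA, 8.53% in MetSA and 10.1% in MA. Their median log2 fold changes were 0.48 in IA, 0.38 in MetSA and -0.16 in MA, beside -0.03, -0.01 and -0.02 over all genes. Casp1 averaged 139.9 CPM in IA, 123 in MetSA and 70.8 in MA, against 82.3 in M. It rose by 0.76 in IA (log2, edgeR adjusted p = 1.76e-07) and 0.57 in MetSA (edgeR adjusted p = 1.26e-05). In MA it fell by 0.22 on the log2 scale, close to the threshold (edgeR adjusted p = 0.0482). Casp4, the caspase that senses intracellular lipopolysaccharide in mice under the name caspase-11, rose by 1.19 in IA (edgeR adjusted p = 1.33e-07) and 0.86 in MetSA and fell by 0.52 on the log2 scale in MA (edgeR adjusted p = 0.00242). Il1rn, the interleukin-1 receptor antagonist, rose by 1.27 in IA (edgeR adjusted p = 6.16e-09). Naip2, a sensor of bacterial secretion systems, rose by 0.69 in IA (edgeR adjusted p = 3.62e-08) and 0.75 in MA (edgeR adjusted p = 1.97e-08).

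Named after their values were seen, because they encode the adaptor of AIM2 and proteins that act downstream of it, were Pycard, Gsdmd, Il1b and Il18. Pycard, the ASC adaptor, was at 42.4 CPM in IA, 44.4 in MetSA and 41.6 in MA, against 45.4 in M, and passed no test (log2 -0.10 in IA, SE 0.07, edgeR adjusted p = 0.307). Gsdmd rose by 0.53 in IA (log2, edgeR adjusted p = 8.17e-06) and 0.48 in MetSA (edgeR adjusted p = 5.09e-05). Il1b averaged 16.7 CPM in IA, 16.3 in MetSA and 4.72 in MA, against 5.70 in M, and rose by 1.55 in IA (edgeR adjusted p = 3.14e-05). Il18 rose by 1.41 in IA (edgeR adjusted p = 3.81e-07) and 1.02 in MetSA (edgeR adjusted p = 3.28e-05). In MA none of these 4 passed the test against M.

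DNA sensors and their signalling partners outside the family were more divided. Of 25 tested, 10 rose and 5 fell in IA, 8 rose and 2 fell in MetSA, and 3 rose and 4 fell in MA, with a median of -0.05 in IA, near that of all genes. Over all genes tested, 17.9% rose and 17.3% fell in IA, 12.6% rose and 8.53% fell in MetSA, and 10.1% rose and 10.1% fell in MA. The falls in IA and in MetSA and the counts in MA are near this background. Zbp1, a sensor of Z-form nucleic acid, averaged 317 CPM in IA, 185 in MetSA and 17.9 in MA, against 22.9 in M (log2 3.79 in IA, edgeR adjusted p = 8.38e-07). Tlr9, the endosomal receptor for DNA, rose by 1.87 in IA (log2, edgeR adjusted p = 2.85e-10), Samhd1, which breaks down deoxynucleotides, by 1.40 (edgeR adjusted p = 5.69e-11), and Cgas, the enzyme that makes cGAMP from cytosolic DNA, by 0.92 (edgeR adjusted p = 6.13e-07). The 5 genes that fell in IA included Hmgb1 (log2 -0.42, edgeR adjusted p = 2.53e-05) and Irf3 (-0.41, edgeR adjusted p = 0.000694). Rnaseh2a (-0.41, edgeR adjusted p = 0.00531) and Xrcc6 (-0.38, edgeR adjusted p = 0.0168) fell in IA as well. So did Xrcc5 (-1.22, edgeR adjusted p = 0.0051), at a mean of only 0.646 CPM in IA. In MA Cgas fell by 0.43 on the log2 scale (edgeR adjusted p = 0.00504) and Samhd1 by 0.40 (edgeR adjusted p = 0.000733).

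Genes of the interferon pathway, which is known to drive p200 genes, mostly rose in IA and MetSA. Of 21 tested genes of receptors, kinases, STATs, IRFs and feedback, 17 rose and 1 fell in IA, 16 rose and 0 fell in MetSA, and 2 rose and 5 fell in MA, with medians of 0.47, 0.31 and -0.12. Over all genes the shares were again 17.9% and 17.3% in IA, 12.6% and 8.53% in MetSA, and 10.1% and 10.1% in MA, and the 2 that rose in MA are near that background. Stat2 averaged 841 CPM in IA, 549 in MetSA and 117 in MA, against 148 in M, and rose by 2.51 in IA (log2, edgeR adjusted p = 8.03e-08). Irf1 rose by 1.43 in IA (edgeR adjusted p = 3.68e-11) and fell by 0.30 on the log2 scale in MA (edgeR adjusted p = 0.00818), Jak2 rose by 1.05 in IA (edgeR adjusted p = 3.96e-09), and the gene that fell in IA was Ifngr1, a chain of the interferon gamma receptor (-0.46, edgeR adjusted p = 5.95e-05). Of 32 interferon-stimulated genes outside the family, 32 rose in IA and 32 in MetSA, while 0 rose and 21 fell in MA, with medians of 2.41, 1.86 and -0.45. Among them Ddx58, the RIG-I RNA sensor, rose by 2.24 in IA (log2, edgeR adjusted p = 2.32e-12), Irgm1, an immunity-related GTPase, by 2.40 (edgeR adjusted p = 1.8e-13), Slfn8 by 1.93 (edgeR adjusted p = 3.72e-13) and Trim30a by 1.91 (edgeR adjusted p = 3.72e-13). The IA and MetSA medians of the p200 genes, 2.87 and 2.22, lie above these, and in MA the median of -0.49 is close to that of the 32 genes. This was not tested. The genes of this list span 1.31 (Oas2) to 5.21 (Ifi44) in IA, a range that holds 9 of the 10 p200 genes and not Aim2 (1.09).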

How the data were processed

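Counts per gene are as deposited by the authors: whole numbers, not normalised. The submitters' processing notes name the tools STAR and featureCounts and the build mm10. Their versions, the strand setting and the handling of reads that match several genes were not given in the sources used here. Of counts from 1 to 9, 66.1% were even, against 50.9% of counts of 1000 or more, so both mates of a pair may have been counted, and the tests were repeated on halved counts. Group and replicate came from the sample titles, and all columns were matched by name. No 2 replicates agreed within sampling noise (9.6 to 59.7 as chi-square over its degrees of freedom). P-values set the differences between groups against the spread between these 12 libraries.

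Genes were kept by filterByExpr (14113 of 32285) and scaled by TMM. The test was edgeR's quasi-likelihood test (robust, 1 fit of the 4 groups, 8 residual degrees of freedom), Benjamini-Hochberg adjusted over all genes tested, called under 0.05, in 6 comparisons. SEs and 95% intervals come from that fit and cover no other error. CPM uses TMM library sizes, and ± is the SD of 3 libraries. Alternatives were DESeq2, upper-quartile scaling, 2 other filters (none, and at least 1 CPM in 3 libraries), halved counts, the 2 groups alone, a replicate block and each library left out. Shared sequence, exons and coordinates come from GENCODE M21, and promoters from RefSeq. The ratio of Aim2 used a pseudocount of 0.5 counts. Tools were edgeR 4.0.16, DESeq2 1.42.0 and limma 3.58.1 in R 4.3.3, and Python 3.11.15.

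The members and lists were chosen with earlier results of these data known. Genes named beside the members were, by rule, the 4 with the smallest adjusted p in IA against M on each list, up to 2 called against the list, the nearest genes around the cluster, and the 5 nearest profiles outside it. Predicted genes and pseudogenes were skipped for profiles. Among the DNA sensors the rule named no gene that fell in IA, so the 5 that fell were added. 1 gene that the rule names is not reported here.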

Additional observations from a re-analysis of the deposited data

How the results depend on the processing

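The 10 calls of IA against M, MetSA against M, IA against MA and MetSA against MA, and the rise of Aim2 in MA, were made under every alternative run. The members called lower in MA against M numbered 5, but 9 without a filter on low counts, and 3 to 5 with each library left out (3 without MA replicate 1 or M replicate 2); their summed difference ran from -0.46 to -0.28 with each library left out. The members called higher in IA against MetSA numbered 6. They numbered 10 with DESeq2, 10 without a filter, and 3 to 7 with each library left out, and the cause was not tested. In both comparisons the calls gained without a filter came with smaller SEs at nearly the same log2 values. Of the repeats for single members, 1095 kept their call, 25 lost it and 20 gained it, and none changed direction. Among same-numbered libraries of different groups, 18 correlations of deviations ran from 0.01 to 0.17 and 2 passed 0.1. Those between libraries of different numbers ran from -0.11 to 0.02, and 12 of 12 libraries correlated best with their own number. The labels do not say whether same-numbered libraries share a source. The main fit and the permutation test did not use the numbers, and a fit with a replicate block was run as the alternative. With the replicate block, 5 members were called lower in MA against M, 5 were called higher in IA against MetSA (Ifi209 was lost, 0.72, edgeR adjusted p = 0.086), and the summed IA against MetSA difference was 0.58. Upper-quartile scaling moved the median of all genes to -0.12 in IA against M and -0.11 in IA against MA, and the share of higher among called genes to 34.8% (50.9% with TMM) in IA against M, 42.2% (59.7%) in MetSA against M, 37.5% (51.5%) in IA against MA, 54.2% (64.8%) in IA against MetSA and 45.5% (55.9%) in MetSA against MA. The lowest counts of any member were those of Ifi205 in MA and M, 65 to 152 per library.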
